A study of Homo sapiens with 12 samples.

Results

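The genes described here are 53 genes of the lysosome, taken by name from a list of lysosomal enzymes, membrane proteins, subunits of the vacuolar proton pump (V-ATPase) and sorting receptors, out of 60617 genes counted in the series. All 53 were found by symbol and all 53 passed the filter on low counts (an average of 1 count or more over the libraries), as did 23041 genes in all. They were grouped by role into 12 peptidases, 10 glycosidases and sulfatases, 8 lipid hydrolases, lipid-handling proteins and other enzymes, 9 membrane proteins, channels and transporters, 10 V-ATPase genes, and 4 sorting receptors and secreted or cytosolic partners.

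The 12 mRNA-seq libraries came from 12Z, an immortalized line of human epithelial cells derived from ectopic endometriosis. Viperin + Insulin cells were transfected with a pCAG plasmid that carries Viperin (RSAD2) and given 100 nM insulin, and Viperin cells had the same plasmid and vehicle. Insulin cells had pCAG empty vector and 100 nM insulin, and Control cells had empty vector and vehicle. Each group had 3 libraries, which the methods describe as independent experiments. All cells were transiently transfected with FuGene HD, kept without serum for 4 h before insulin or vehicle, kept in serum-free medium thereafter, and collected 24 h later. The protocol in the labels names a pBabe empty vector while the treatment labels name pCAG. The design asks what insulin does with and without the Viperin plasmid, and whether the plasmid alters the insulin response. In a transfected culture read as 1 RNA pool, fewer cells that express a gene and less RNA per cell cannot be told apart.

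Lysosomes are acidic organelles in which hydrolases break down proteins, glycans and lipids that arrive by endocytosis and autophagy. The V-ATPase pumps protons into the lumen, mannose 6-phosphate receptors and sortilin deliver newly made enzymes, and membrane proteins such as LAMP1 and LAMP2 line the organelle. Insulin signals through AKT and mTORC1, which acts at the lysosomal surface and holds the transcription factors TFEB and TFE3 in the cytosol, and AKT keeps FOXO factors out of the nucleus. TFEB and its relatives bind a short palindromic element that is common near the start sites of lysosomal genes. Viperin is an interferon-induced enzyme of the endoplasmic reticulum and lipid droplets with antiviral activity.

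RSAD2 was 531 ± 107 CPM (counts scaled by TMM to a common library size) in the 6 libraries with the Viperin plasmid and 3.46 ± 0.994 CPM in the 6 with empty vector (SD), a 154-fold difference (p = 0.00216 by an exact permutation test, two-sided, which is the lowest value open to 6 against 6 libraries). Libraries held 25979022 to 46889002 assigned read pairs. Reads of mitochondrially encoded genes were 4.28% to 4.52% of the counts in Viperin + Insulin libraries, 4.81% to 5.34% in Viperin, 5.14% to 5.18% in Insulin and 5.59% to 6.64% in Control, so this share moved with both insulin and the plasmid. Control library 1 and Viperin library 3 stood apart in the share of reads that mapped to more than 1 place (13.9% and 12.1%, against at most 10.99% in the other 10). Keratins KRT8, KRT18 and KRT19 were at 430.1 CPM or more in every library, whereas EPCAM (2 to 39 counts) and CDH1 (24 to 66 counts) were low and the mesenchymal genes VIM and FN1 were at 1391 CPM or more. Some of these markers passed as well, by amounts like those of the members. With insulin over both plasmids KRT8 gave 0.11 ± 0.02 (adjusted p = 0.00068), and with the Viperin plasmid over both insulin states VIM gave -0.13 ± 0.03 (adjusted p = 0.0012), CDH2 0.09 ± 0.03 (adjusted p = 0.0228) and KRT8 -0.08 ± 0.02 (adjusted p = 0.0395) on the log2 scale (edgeR). Their part in the results below was not tested. Macrophage markers, of interest because CD68, GPNMB and CTSK are high in such cells, summed to 12.7 to 13.5 CPM in Viperin + Insulin, 12.3 to 13.8 in Viperin, 11.2 to 13.5 in Insulin and 11.7 to 12.9 in Control libraries over 10 genes. CD163 and AIF1 had 0 counts in all 12 libraries and CSF1R at most 4.

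Levels between genes were compared as CPM per kilobase of exon, averaged over the 12 libraries. The length was that of all exons annotated for a gene in GENCODE v44, joined, which can exceed any single transcript. It was 24849 bases for CTSC and 1609 for ATP6V0E1. Ranks of genes and roles on this scale therefore depend on the annotation. PSAP, the precursor of the saposins that help hydrolases reach their lipids, was the most abundant member at 276 CPM per kilobase. CD63, a tetraspanin of late endosomes, followed at 184, ATP6V0E1, a small subunit of the proton channel, at 105, and GRN, which encodes progranulin, at 90.9. The median member stood at 13.8 CPM per kilobase, against 0.917 over 22946 tested genes with a length. Medians by role ran over an order of magnitude, with the 4 sorting receptors and partners at 43.5, the lipid group at 31.1, the V-ATPase at 20.6, the membrane proteins at 11.9, the peptidases at 6.88 and the glycosidases and sulfatases at 3.41 CPM per kilobase. By CPM alone the order of roles differed, with the V-ATPase (149) above the lipid group (119) and the peptidases (70.7) above the membrane proteins (58.8).

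**Figure D1:**
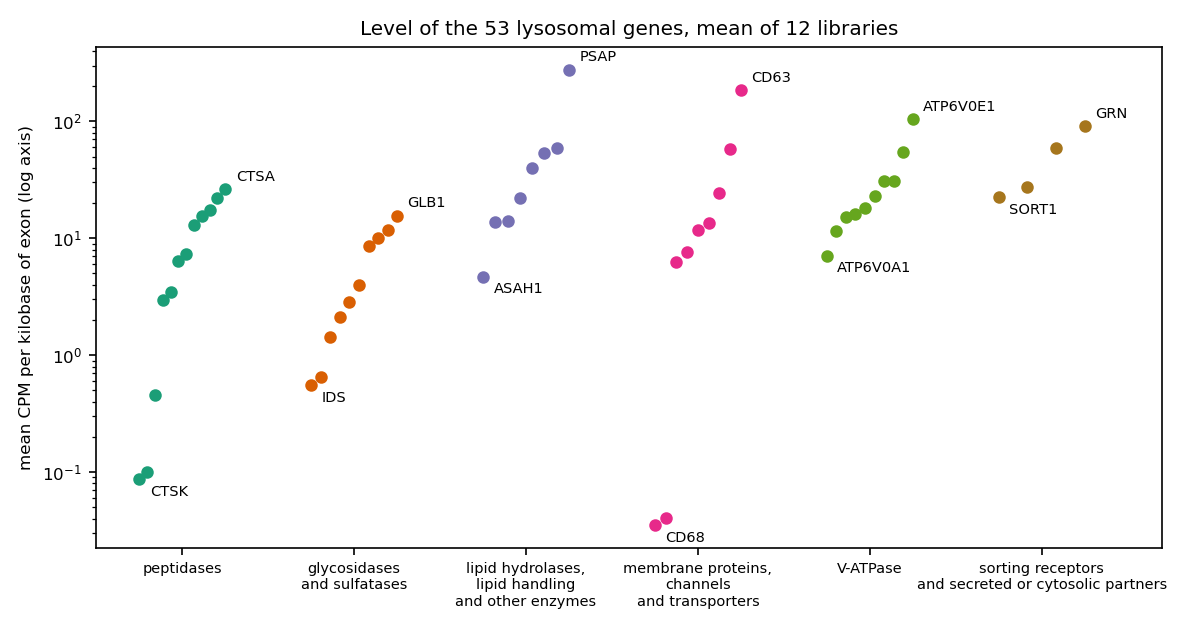
Level of each of the 53 members by role, as CPM per kilobase of exon (all annotated exons joined) on a log axis, mean of the 12 libraries. Each point is 1 gene, and the highest and lowest of each role are named. PSAP tops the plot at 276 and CD68 is the lowest at 0.0354.

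Low members were CD68, a heavily glycosylated protein of macrophage lysosomes (0 to 6 counts per library), CLN3, a membrane protein lost in juvenile Batten disease (7 to 22 counts), CTSK, the collagen-degrading cathepsin of osteoclasts (18 to 33 counts), and CTSO (12 to 45 counts). These 4 genes had standard errors of 0.19 or more in every comparison, and none passed a test. For some members the count depends on the annotation, since reads shared by overlapping genes on the same strand are not assigned. In GENCODE v44, 81.6% of the exon bases of CD68, 75.9% of IDS, 27.3% of CTSD, 25.3% of CLN3, 21.2% of MAN2B1 and 11.6% of TPP1 lie within an exon of another gene on that strand.

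In response to insulin, most peptidases that changed fell and the V-ATPase genes that changed rose. Over both plasmids 66.7 percent of the 12 peptidases and 30 percent of the 10 V-ATPase genes passed, beside 11.7 percent of all genes. Of 9 membrane proteins 0 passed in an insulin comparison, which in so short a list is not far from the share of all genes. Averaged over both plasmids, 13 members fell and 7 rose at an adjusted p under 0.05 (edgeR's quasi-likelihood test, Benjamini-Hochberg over 23041 genes). That is 20 of 53 members beside 11.7 percent of all genes tested (5.97 percent lower and 5.76 percent higher), and the median log2 fold change was -0.027 over members and -0.0018 over all genes. Members were higher in level than most genes tested (median 77.6 CPM, against 2.75). No share here or below was taken over genes of like level. With the stricter filter filterByExpr, 20 of 52 members were called, beside 17.2 percent of all genes. In the single pairs it gave 11 and 7 of 52, beside 8.19 and 6.65 percent. In empty-vector cells alone, 8 members fell and 3 rose (11 of 53, beside 5.49 percent of all genes, 2.96 percent lower and 2.53 percent higher), and in cells with the Viperin plasmid 5 fell and 1 rose (6 of 53, beside 4.56 percent, 2.39 percent lower and 2.17 percent higher). The empty-vector count was 5 without Insulin library 2 (beside 2.72 percent of all genes) and 4 without Insulin library 3 (beside 3.04 percent), so the share of all genes fell as well. At the study's threshold of 0.001, 6 members fell and 1 rose over both plasmids, beside 2.17 percent of all genes lower and 1.76 percent higher. Mitochondrial read share, lower with insulin on both plasmids, moved with these results. Its part was not tested beyond leaving mitochondrially encoded genes and RSAD2 out of the library sizes, which gave 13 fallen and 7 risen members again.

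CTSF, which encodes cathepsin F, a cysteine protease that degrades proteins in the lysosome, had the largest insulin response of the members that passed. It lies on chromosome 11 (chr11:66563464-66568879, minus strand, GRCh38). It had 22.4, 20.7 and 18.4 CPM in Insulin libraries, against 29.98, 27.4 and 28.4 CPM in Control libraries. With the Viperin plasmid it had 25.7, 23.4 and 25.1 CPM in Viperin + Insulin libraries, against 32.6, 37.5 and 37.3 CPM in Viperin libraries. The insulin-treated libraries were below the vehicle libraries of the same plasmid without overlap. The log2 fold changes were -0.48 ± 0.07 (adjusted p = 3.6e-07) in empty-vector cells and -0.53 ± 0.06 (adjusted p = 5.2e-09) in Viperin cells, with ± giving the standard error here and below. Over both plasmids the level was 29.3% lower with insulin, or -0.50 ± 0.05 (adjusted p = 1.4e-13), and it ranged from -0.54 to -0.46 whichever library was left out.

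Of the 53 members, 40 had a promoter in the RefSeq table (GRCh38.p14), which covers 250 bases before to 50 after each start site. It held none for ASAH1, ATP6V0E1, ATP6V1A, ATP6V1B2, ATP6V1C1, ATP6V1H, CTSB, CTSK, CTSO, HEXA, LAMP2, MANBA or PSAP, so these were not searched. Because FOXO factors bind GTAAACA and TFEB binds CACGTG, above all within TCACGTGA, these words were searched on both strands, and a gene counted where any of its listed promoters held the word. CTSF, CTSL and SORT1 held GTAAACA (7.5% of the 40 members, against 4.19% of 27305 genes). CACGTG was in 12 members (30%, against 8.77% of all genes) and the longer TCACGTGA, which contains it, in 6 members, ATP6V0D1, CLN3, CTSA, GAA, LAMP1 and MCOLN1 (15%, against 1.18%). The 150 bases before the CTSF start site are shown because CTSF had the largest fall (chr11:66568607-66568756, minus strand, 5′ to 3′). Capitals mark CACGTG in 2 places and GTAAACA, which begins 39 bases before the start.
CTSF: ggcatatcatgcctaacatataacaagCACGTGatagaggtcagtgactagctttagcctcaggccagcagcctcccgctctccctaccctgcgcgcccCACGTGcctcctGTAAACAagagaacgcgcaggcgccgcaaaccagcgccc
For comparison, the 100 bases before the start of GAA (chr17:80101481-80101580, plus strand) and the 60 before MCOLN1 (chr19:7522564-7522623, plus strand) are shown with TCACGTGA in capitals. Both hold it in 2 places, and MCOLN1 passed in no comparison.
GAA: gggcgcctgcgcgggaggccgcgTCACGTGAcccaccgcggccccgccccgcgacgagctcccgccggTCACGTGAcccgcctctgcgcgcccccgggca
MCOLN1: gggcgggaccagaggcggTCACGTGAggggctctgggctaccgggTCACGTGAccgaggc
The CTSF stretch lies inside the CTSF gene interval given above, because the RefSeq start used is downstream of the annotated gene start. Part of the GAA stretch also lies inside its gene, whose interval begins at base 80101533. A match is a description of the letters, and binding was not measured.

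TPP1, tripeptidyl peptidase 1, which trims peptides from their amino end and is lost in a childhood form of neuronal ceroid lipofuscinosis, fell with insulin on both plasmids. It had 102, 98.6 and 106 CPM in Insulin libraries, against 113, 112 and 116 CPM in Control libraries. With the Viperin plasmid it had 111, 112 and 113 CPM in Viperin + Insulin libraries, against 125, 128 and 125 CPM in Viperin libraries. Neither pair overlapped, and the log2 fold changes were -0.15 ± 0.04 (adjusted p = 0.00946) and -0.17 ± 0.04 (adjusted p = 0.00197). The first was not past the threshold without Insulin library 2 (-0.12, adjusted p = 0.136). CTSB, cathepsin B, is a cysteine protease with both endopeptidase and peptidyl-dipeptidase activity. It had 160.3, 152 and 149.6 CPM in Insulin libraries, against 167, 175 and 169 CPM in Control libraries. In cells with the plasmid it had 153, 156 and 153 CPM in Viperin + Insulin libraries, against 177, 172 and 187 CPM in Viperin libraries. These pairs did not overlap either, with -0.15 ± 0.04 (adjusted p = 0.00941) and -0.21 ± 0.04 (adjusted p = 7.2e-05). In empty-vector cells CTSB did not pass without any 1 of Insulin libraries 2 and 3 or Control library 2 (-0.14 to -0.13, adjusted p 0.0562 to 0.12).

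Other peptidases fell in empty-vector cells. CTSZ, a carboxypeptidase, had 59.3, 59.999 and 61.1 CPM in Insulin libraries, against 66.6, 68.8 and 71.6 CPM in Control libraries, a log2 fold change of -0.20 ± 0.04 (adjusted p = 0.0013) that held whichever library was left out. In Viperin cells CTSZ gave -0.06 ± 0.04 (adjusted p = 0.515) and did not pass. CTSA, the protective protein that stabilizes the lysosomal neuraminidase and beta-galactosidase, had 214, 209 and 203 CPM in Insulin libraries, against 236, 218 and 236 CPM in Control libraries. Its log2 fold change was -0.14 ± 0.04 (adjusted p = 0.0132), and it did not pass without any 1 of Insulin libraries 2 and 3 (-0.14 to -0.12, adjusted p 0.0625 to 0.138). DPP7, a dipeptidyl peptidase that cuts after proline, gave -0.25 ± 0.07 (adjusted p = 0.0143), with 1 Control library (21.7 CPM) among the Insulin libraries. It did not pass without any 1 of Insulin library 3 or Control libraries 1 and 3 (-0.23 to -0.18, adjusted p 0.0749 to 0.146). Over both plasmids CTSA, CTSB, CTSF, CTSZ, TPP1, DPP7 and CTSD, the main aspartic protease of lysosomes (-0.11 ± 0.03 (adjusted p = 0.0053)), fell whichever library was left out. CTSC, which activates serine proteases, was the peptidase that rose (0.09 ± 0.03 (adjusted p = 0.0322)), and it did not pass without any 1 of Viperin + Insulin libraries 2 and 3, Viperin libraries 1 and 2, Insulin libraries 1 and 3 or Control libraries 2 and 3 (0.08 to 0.09, adjusted p 0.058 to 0.106).

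Of 10 glycan-degrading enzymes, 3 fell and 1 rose over both plasmids, beside 5.97 percent of all genes lower and 5.76 percent higher, and 0 passed in either single pair, beside 5.49 and 4.56 percent. GUSB, beta-glucuronidase, had 31.9, 29.2 and 30.5 CPM in Insulin libraries, against 34.4, 33.7 and 32.7 CPM in Control libraries. With the plasmid GUSB had 33.5, 33.99 and 33.03 CPM in Viperin + Insulin libraries, against 34.8, 38.3 and 38.8 CPM in Viperin libraries. The insulin-treated libraries were lower in each pair without overlap (-0.14 ± 0.04 (adjusted p = 0.00625) over both plasmids). GAA, the acid glucosidase that breaks down glycogen, gave -0.25 ± 0.08 (adjusted p = 0.0301) over both plasmids and did not pass without any 1 of Viperin + Insulin libraries 2 and 3, Viperin library 2, Insulin libraries 2 and 3 or Control library 3 (-0.25 to -0.17, adjusted p 0.0541 to 0.193). MAN2B1, an alpha-mannosidase, gave -0.15 ± 0.05 (adjusted p = 0.0249) and did not pass without any 1 of Viperin + Insulin libraries 1 and 3, Viperin libraries 2 and 3 or Insulin library 2 (-0.14 to -0.12, adjusted p 0.0524 to 0.12). GLA, the alpha-galactosidase deficient in Fabry disease, went the other way, with 76.04, 84.02 and 77.7 CPM in Insulin libraries, against 74.8, 73.1 and 70.9 CPM in Control libraries. In the presence of the Viperin plasmid GLA had 75.2, 72.4 and 74.5 CPM in Viperin + Insulin libraries, against 69.4, 64.99 and 67.8 CPM in Viperin libraries. Again neither pair overlapped, and over both plasmids the log2 fold change was 0.13 ± 0.03 (adjusted p = 0.00178).

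Among 8 lipid hydrolases and lipid-handling genes, NPC2, which binds cholesterol in the lumen and passes it to NPC1, had 95.1, 94.5 and 95.8 CPM in Insulin libraries, against 108, 106 and 103 CPM in Control libraries. Its Insulin libraries were lower than all Control libraries (-0.15 ± 0.04 (adjusted p = 0.0106)), though not past the threshold without Insulin library 2 (-0.15, adjusted p = 0.0656), and over both plasmids it gave -0.13 ± 0.03 (adjusted p = 0.0005). PPT1, which removes palmitate from proteins, gave 0.09 ± 0.03 (adjusted p = 0.0275) over both plasmids and did not pass without any 1 of Viperin + Insulin library 3, Viperin library 3, Insulin libraries 2 and 3 or Control libraries 2 and 3 (0.07 to 0.08, adjusted p 0.0624 to 0.113). NPC1, LIPA, SMPD1, ASAH1, ACP2 and PSAP did not pass with insulin, with log2 fold changes over both plasmids between -0.13 and 0.07.

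The V-ATPase genes that passed were all in the V1 sector, the cytosolic part that hydrolyses ATP. ATP6V1A, its catalytic subunit, had 145, 149.98 and 149 CPM in Insulin libraries, against 129, 142 and 134 CPM in Control libraries. With the Viperin plasmid it had 153, 152 and 159 CPM in Viperin + Insulin libraries, against 147, 141 and 136 CPM in Viperin libraries. The libraries with insulin were the higher ones in each pair without overlap, by 0.13 ± 0.04 (adjusted p = 0.0298) and 0.13 ± 0.04 (adjusted p = 0.0333). The first did not pass without any 1 of Insulin libraries 2 and 3 or Control libraries 1 and 3 (0.10 to 0.13, adjusted p 0.0507 to 0.164), and the second did not pass without any 1 of Viperin + Insulin libraries 1, 2 and 3, Viperin libraries 2 and 3 or Insulin library 3 (0.10 to 0.14, adjusted p 0.0512 to 0.219). Over both plasmids ATP6V1A gave 0.13 ± 0.03 (adjusted p = 0.00035) and passed whichever library was left out.

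ATP6V1B2, the partner subunit that binds nucleotide, had 142, 149 and 156 CPM in Insulin libraries, against 138, 137 and 127 CPM in Control libraries. ATP6V1C1, a stator subunit that joins the V1 and V0 sectors, had 187, 193 and 188 CPM in Insulin libraries, against 175, 179 and 167 CPM in Control libraries. Neither overlapped, with 0.16 ± 0.04 (adjusted p = 0.0057) and 0.13 ± 0.04 (adjusted p = 0.0365). ATP6V1B2 did not pass without any 1 of Insulin library 3 or Control library 3 (0.12, adjusted p 0.066 to 0.128), and ATP6V1C1 did not pass without any 1 of Insulin libraries 1, 2 and 3 or Control library 3 (0.10 to 0.13, adjusted p 0.0559 to 0.19). In Viperin cells they gave 0.04 and 0.06 and did not pass. Over both plasmids ATP6V1B2 gave 0.10 ± 0.03 (adjusted p = 0.00738), not past the threshold without Insulin library 3 (0.08, adjusted p = 0.0636), and ATP6V1C1 gave 0.09 ± 0.03 (adjusted p = 0.0124), not past it without any 1 of Viperin + Insulin library 3 or Viperin library 3 (0.07 to 0.08, adjusted p 0.0577 to 0.0728). The other 7 V-ATPase members gave log2 fold changes from -0.06 to 0.06 over both plasmids and did not pass.

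Of the secreted and cytosolic partners, GRN, whose product is cut into granulins inside lysosomes, had 289, 291 and 288 CPM in Insulin libraries, against 338, 310.1 and 315 CPM in Control libraries. With the Viperin plasmid GRN had 313, 341 and 303 CPM in Viperin + Insulin libraries, against 348, 339.6 and 368 CPM in Viperin libraries, and only this second pair overlapped, by 1 library. The log2 fold changes were -0.15 ± 0.04 (adjusted p = 0.00981) and -0.14 ± 0.04 (adjusted p = 0.0143), and -0.15 ± 0.03 (adjusted p = 5.6e-05) over both plasmids. The first did not pass without any 1 of Insulin library 3 or Control library 1 (-0.15 to -0.11, adjusted p 0.064 to 0.0752), and the second did not pass without any 1 of Viperin + Insulin libraries 1 and 3 or Viperin library 3 (-0.13 to -0.11, adjusted p 0.091 to 0.195). LGALS3, galectin-3, a lectin of the cytosol that gathers on damaged lysosomes, had 57.3, 54.5 and 54.98 CPM in Viperin + Insulin libraries, against 64.1, 74.8 and 64.9 CPM in Viperin libraries. In empty-vector cells LGALS3 had 56.9, 55.8 and 57.2 CPM in Insulin libraries, against 61.7, 59.01 and 62.03 CPM in Control libraries. Its insulin-treated libraries were lower in each pair without overlap, and Viperin library 2 was the highest of the 12. The change was -0.29 ± 0.05 (adjusted p = 7.9e-06) with the plasmid, held whichever library was left out, and -0.11 ± 0.05 (adjusted p = 0.218) without it. M6PR, the cation-dependent mannose 6-phosphate receptor, gave 0.09 ± 0.03 (adjusted p = 0.0166) over both plasmids and did not pass without any 1 of Viperin + Insulin library 2 or Insulin library 2 (0.08, adjusted p 0.0559 to 0.0708).

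Other settings ended some insulin calls. By DESeq2, ATP6V1A in Viperin cells (adjusted p = 0.0533) and, over both plasmids, CTSC (adjusted p = 0.0559), GAA (adjusted p = 0.0726) and PPT1 (adjusted p = 0.0581) did not pass. In empty-vector cells CTSA did not pass in the fit of only the groups compared (adjusted p = 0.0503). Without both Control library 1 and Viperin library 3, DPP7 (adjusted p = 0.146), ATP6V1A (adjusted p = 0.0994) and GRN (adjusted p = 0.0661) in empty-vector cells, ATP6V1A in Viperin cells (adjusted p = 0.128) and MAN2B1 over both plasmids (adjusted p = 0.0737) did not pass.

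**Figure D2:**
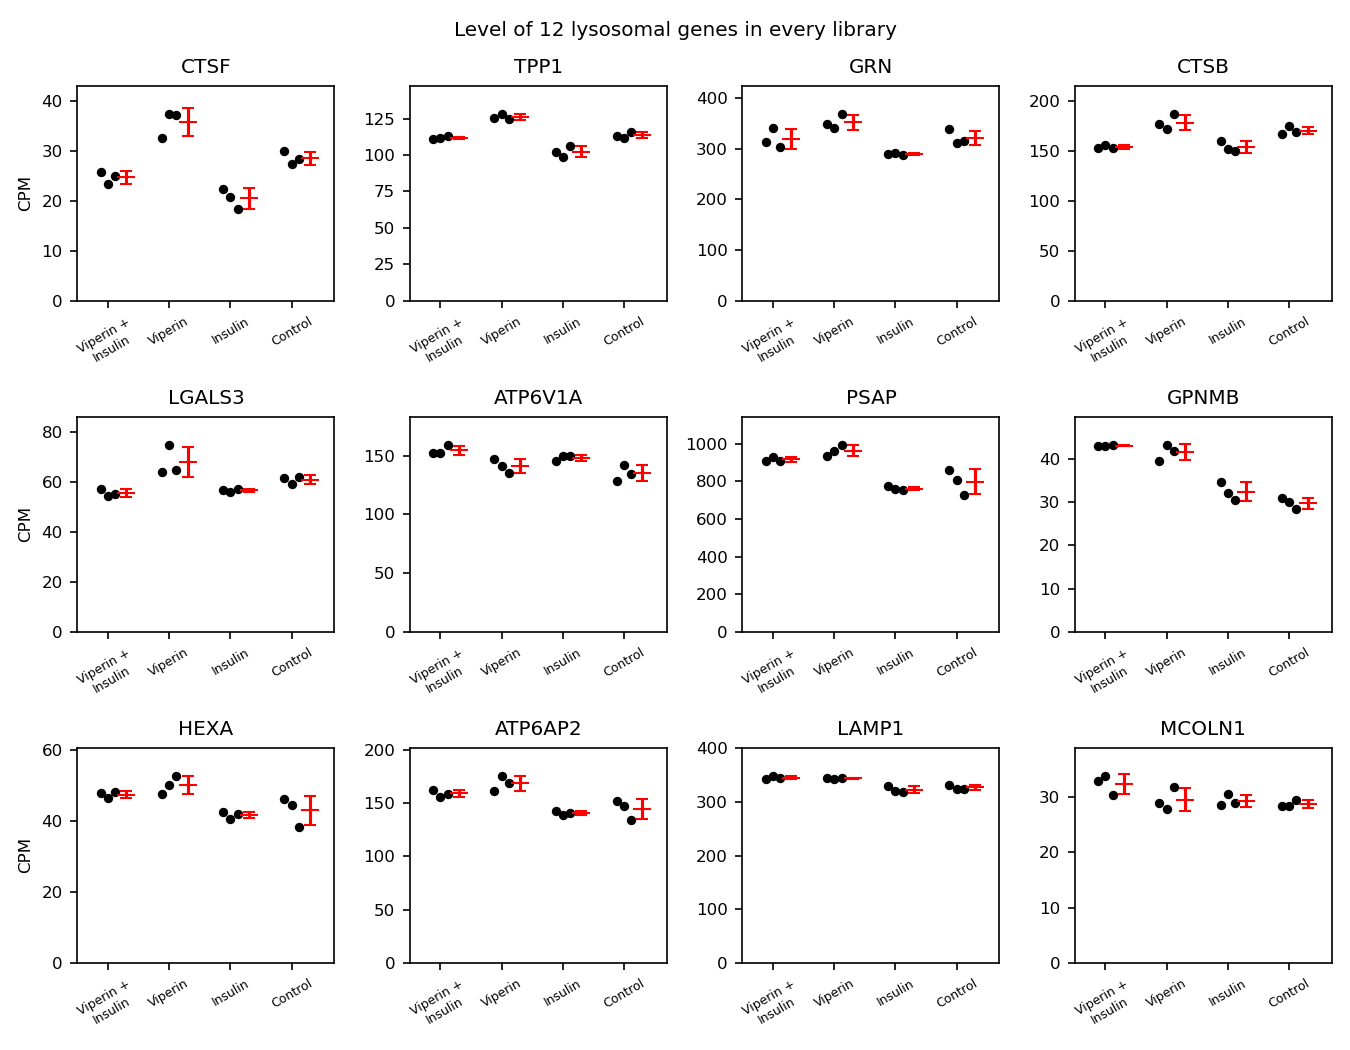
CPM of 12 members in each library (black points, 3 per group) with the group mean ± SD in red; every axis starts at 0. CTSF is lowest in Insulin libraries (18.4 to 22.4 CPM) and highest in Viperin libraries (32.6 to 37.5 CPM), whereas PSAP and GPNMB separate by plasmid and LAMP1 and MCOLN1 are nearly level.

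With the Viperin plasmid, all but 1 of the members that changed rose. Averaged over both insulin states, 18 members rose and 1 fell, 19 of 53 beside 7.96 percent of all genes tested (4.47 percent higher and 3.49 percent lower), with a median log2 fold change of 0.067 over members and 0.0012 over all genes. In vehicle-treated cells 10 members rose and 0 fell (beside 2.29 percent of all genes, 1.25 percent higher and 1.04 percent lower), and with insulin 10 rose and 0 fell (beside 3.09 percent, 2.09 percent higher and 0.994 percent lower). The 2 sets of 10 come from pairs that share no library, and 7 genes were in both (13.2% of members, beside 0.929% of all genes): ATP6AP2, CTSF, GPNMB, GRN, HEXA, PSAP and TPP1. Members were higher in level than most genes tested, which these shares do not take into account. DESeq2 gave 9 risen members in vehicle-treated and 6 in insulin-treated cells, and with insulin the count was 4 without Viperin + Insulin library 1, 6 without library 2 or 3 of that group, and 5 without Insulin library 2 or 3. The shares of all genes under these settings are not given here, so these drops cannot be read as particular to the members. At 0.001, 10 members rose and 0 fell over both insulin states, beside 1.34 percent of all genes higher and 0.716 percent lower. The mitochondrial read share was lower with the plasmid in each pair without overlap, and its part was not tested beyond leaving those genes and RSAD2 out of the library sizes, which gave 18 risen and 1 fallen member again.

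GPNMB, a transmembrane glycoprotein of late endosomes, lysosomes and melanosomes, had the largest fold change among the members that passed with the plasmid (chr7:23235967-23275108, plus strand). It had 42.95, 43.04 and 43.2 CPM in Viperin + Insulin libraries, against 34.7, 32.2 and 30.4 CPM in Insulin libraries. With vehicle it had 39.6, 43.2 and 41.8 CPM in Viperin libraries, against 30.9, 30.02 and 28.4 CPM in Control libraries. All 6 libraries with the plasmid were above all 6 without it, by 0.41 ± 0.05 (adjusted p = 1.6e-07) with insulin and 0.48 ± 0.06 (adjusted p = 1.4e-08) with vehicle. The difference stayed between 0.42 and 0.47 over both insulin states whichever library was left out, and insulin itself gave 0.09 ± 0.04 (adjusted p = 0.132). The summed macrophage markers given above, mostly CD74 and CD14, overlapped between the groups. PTPRC, a minor part of that sum at 16 to 52 counts, was higher with the plasmid in vehicle-treated cells without passing (0.89 ± 0.28 (adjusted p = 0.0676)) and gave 0.09 ± 0.25 (adjusted p = 0.936) with insulin. Its part was not tested.

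PSAP (chr10:71816298-71851251, minus strand) had 909.8, 932 and 911 CPM in Viperin + Insulin libraries, against 773, 758 and 755 CPM in Insulin libraries. With vehicle PSAP had 936, 959.5 and 994 CPM in Viperin libraries, against 862, 808 and 726 CPM in Control libraries. The lowest library with the plasmid (909.8 CPM) was above the highest without it (862 CPM, Control library 1). The log2 fold changes were 0.27 ± 0.04 (adjusted p = 9.9e-06) with insulin and 0.27 ± 0.04 (adjusted p = 1.7e-05) with vehicle, about 20.5% higher over both states, and they held under every alternative tried. In abundance this was the largest shift among members, since PSAP averaged 918 ± 12.6 CPM in Viperin + Insulin and 762 ± 10.01 CPM in Insulin libraries (SD, n = 3 each).

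CTSF, TPP1 and GRN passed in all 4 pairs, lower with insulin and higher with the plasmid. With insulin CTSF had 24.7 ± 1.23 CPM in Viperin + Insulin and 20.5 ± 2.04 CPM in Insulin libraries, and with vehicle 35.8 ± 2.8001 CPM in Viperin and 28.6 ± 1.303 CPM in Control libraries (SD, n = 3 each). No library with the plasmid overlapped its counterpart group, with 0.27 ± 0.06 (adjusted p = 0.00734) and 0.32 ± 0.06 (adjusted p = 0.00093). The first did not pass without any 1 of Viperin + Insulin library 1 or Insulin library 3 (0.20 to 0.24, adjusted p 0.0863 to 0.186). TPP1 gave 0.13 ± 0.04 (adjusted p = 0.0465) with insulin and 0.15 ± 0.04 (adjusted p = 0.0203) with vehicle, and GRN gave 0.14 ± 0.04 (adjusted p = 0.0252) and 0.13 ± 0.04 (adjusted p = 0.0428). Over both insulin states TPP1 gave 0.14 ± 0.03 (adjusted p = 0.00023) and GRN 0.14 ± 0.03 (adjusted p = 0.00029), and these held whichever library was left out.

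The single comparisons of TPP1 and GRN were close to the threshold. TPP1 with insulin did not pass without any 1 of Viperin + Insulin libraries 1, 2 and 3, Viperin libraries 1 and 2 or Insulin libraries 1, 2 and 3 (0.10 to 0.16, adjusted p 0.0504 to 0.364), nor with RLE size factors, DESeq2, no filter on low counts, unstranded counts, or RSAD2 and the mitochondrially encoded genes left out of the library sizes (adjusted p 0.0562 to 0.0892 over these and the replicate block). TPP1 with vehicle did not pass without any 1 of Viperin library 2 or Control library 2 (0.14, adjusted p 0.0916 to 0.103), nor in the fit of only the groups compared (adjusted p = 0.0905). GRN with insulin did not pass without any 1 of Viperin + Insulin libraries 1 and 2 or Insulin libraries 1, 2 and 3 (0.09 to 0.15, adjusted p 0.0661 to 0.364), nor by DESeq2 (adjusted p = 0.0823). GRN with vehicle did not pass without any 1 of Viperin libraries 1 and 3, Insulin libraries 2 and 3 or Control libraries 2 and 3 (0.10 to 0.14, adjusted p 0.0531 to 0.257), nor by DESeq2 (adjusted p = 0.108), with filterByExpr (adjusted p = 0.0667) or in the fit of only the groups compared (adjusted p = 0.143).

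TCATGTGA, which holds the core of the M-box that MITF and its relatives bind, was added to the search after the promoters of GPNMB, TPP1 and GRN had been read. It or its reverse complement TCACATGA was in 5 of the 40 members, CD63, GPNMB, GRN, PPT1 and TPP1 (12.5%, against 1.24% of 27305 genes). Because the word was picked from 3 of these promoters, their matches were fixed in advance. The 2 shares therefore cannot show an excess among the members. Stretches before the start sites of these 3 genes are shown because all 3 rose with the plasmid, with the word in capitals: 100 bases of GPNMB (chr7:23246675-23246774, plus strand), 60 bases of TPP1 (chr11:6619423-6619482, minus strand), and 60 bases of GRN that end 181 bases before its start (chr17:44345062-44345121, plus strand).
GPNMB: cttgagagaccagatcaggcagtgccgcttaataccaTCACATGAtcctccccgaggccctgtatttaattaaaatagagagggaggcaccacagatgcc
TPP1: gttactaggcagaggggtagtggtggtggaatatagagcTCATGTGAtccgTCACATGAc
GRN: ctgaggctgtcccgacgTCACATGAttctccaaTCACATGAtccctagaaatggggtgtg
The RefSeq start used for GPNMB lies inside the gene interval given above, downstream of that interval's first base. Part of the TPP1 stretch lies inside its gene too (chr11:6612768-6619448). TPP1 and GRN each hold the word in 2 places and GPNMB in 1. CD63, which also holds it, gave -0.07 ± 0.03 (adjusted p = 0.118) over both insulin states and did not pass, and PPT1 gave 0.04 ± 0.03 (adjusted p = 0.548).

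**Figure D3:**
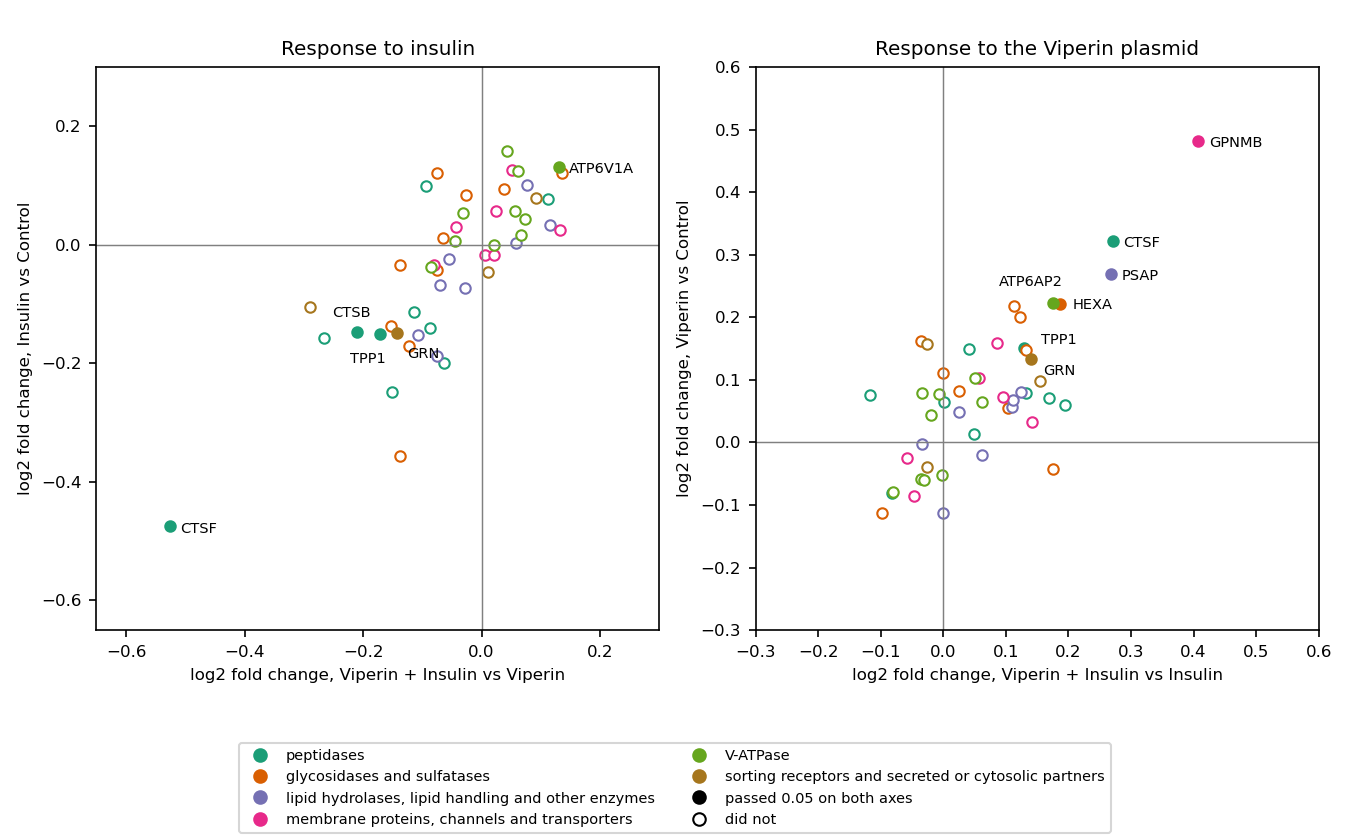
Log2 fold changes of 49 members in 2 pairs that share no library: insulin with the Viperin plasmid (x) against insulin with empty vector (y) on the left, and the Viperin plasmid with insulin (x) against the plasmid with vehicle (y) on the right; filled, named points passed 0.05 on both axes. CD68, CLN3, CTSK and CTSO were left off after their values were seen. CTSF sits at the far lower left of the insulin plot and GPNMB at the far upper right of the plasmid plot.

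Among the glycosidases, HEXA, the alpha subunit of the hexosaminidase lost in Tay-Sachs disease, had 47.7, 46.3 and 48.02 CPM in Viperin + Insulin libraries, against 42.3, 40.5 and 41.9 CPM in Insulin libraries. With vehicle HEXA had 47.4, 50.01 and 52.6 CPM in Viperin libraries, against 46.2, 44.3 and 38.3 CPM in Control libraries. The 6 libraries with the plasmid were all higher than the 6 without it (0.19 ± 0.05 (adjusted p = 0.025) and 0.22 ± 0.05 (adjusted p = 0.00949)). With insulin HEXA did not pass without any 1 of Viperin + Insulin libraries 1, 2 and 3 or Insulin libraries 2 and 3 (0.17 to 0.20, adjusted p 0.0509 to 0.17), and with vehicle it did not pass without any 1 of Viperin library 3 or Control library 3 (0.14 to 0.19, adjusted p 0.0772 to 0.207). On unstranded counts neither pair passed, and over both insulin states the change was 0.20 ± 0.04 (adjusted p = 6.2e-05) and held under every alternative tried.

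GLB1, the lysosomal beta-galactosidase, had 69.1, 73.9 and 76.5 CPM in Viperin libraries, against 65.7, 62.3 and 62.8 CPM in Control libraries. With insulin GLB1 had 67.8, 71.1 and 70.5 CPM in Viperin + Insulin libraries, against 63.2, 64.2 and 65.02 CPM in Insulin libraries. All libraries with the plasmid were above all without it, and the change was 0.20 ± 0.04 (adjusted p = 0.00411) with vehicle, not past the threshold without Viperin library 3 (0.17, adjusted p = 0.0507), and 0.12 ± 0.04 (adjusted p = 0.115) with insulin. MANBA, a beta-mannosidase, gave 0.22 ± 0.06 (adjusted p = 0.041) with vehicle, not past it without any 1 of Viperin libraries 1, 2 and 3, Insulin library 3 or Control libraries 2 and 3 (0.18 to 0.23, adjusted p 0.0565 to 0.194). Over both insulin states GLB1 (0.16 ± 0.03 (adjusted p = 0.00015)) and MANBA (0.17 ± 0.04 (adjusted p = 0.00777)) held whichever library was left out. GUSB gave 0.14 ± 0.04 (adjusted p = 0.0118) and did not pass without Insulin library 2 (0.12, adjusted p = 0.0604). GLA was the 1 member that fell with the plasmid (-0.11 ± 0.03 (adjusted p = 0.0187)), and it did not pass without any 1 of Viperin + Insulin library 2, Viperin library 2 or Insulin library 2 (-0.10 to -0.08, adjusted p 0.0615 to 0.131).

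Of 9 membrane proteins, 4 rose and 0 fell with the plasmid over both insulin states, beside 4.47 percent of all genes higher and 3.49 percent lower. SCARB2, the receptor that carries glucocerebrosidase to lysosomes, had 286, 273 and 272 CPM in Viperin libraries, against 252, 248 and 244 CPM in Control libraries. With insulin SCARB2 had 267, 262 and 277 CPM in Viperin + Insulin libraries, against 254, 256 and 251 CPM in Insulin libraries. The plasmid libraries were higher in both without overlap, by 0.16 ± 0.04 (adjusted p = 0.00497), not past the threshold without Viperin library 1 (0.14, adjusted p = 0.0603), and by 0.09 ± 0.04 (adjusted p = 0.206). LAMP1 and LAMP2, the main glycoproteins of the lysosomal membrane, rose slightly over both insulin states (0.08 ± 0.02 (adjusted p = 0.018) and 0.08 ± 0.02 (adjusted p = 0.03)). LAMP1 did not pass without any 1 of Viperin + Insulin library 2 or Insulin libraries 2 and 3 (0.08, adjusted p 0.0524 to 0.0771), and LAMP2 did not pass without any 1 of Viperin + Insulin libraries 1, 2 and 3, Viperin libraries 1 and 2 or Insulin libraries 1 and 2 (0.07 to 0.08, adjusted p 0.0537 to 0.102). MCOLN1, a calcium channel of the lysosomal membrane, gave 0.09 ± 0.04 (adjusted p = 0.219), CTNS, the cystine exporter, gave -0.04 ± 0.03 (adjusted p = 0.553), and neither passed.

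ATP6AP2, an accessory protein of the V-ATPase known also as the prorenin receptor, was the V-ATPase member that rose with the plasmid. It had 163, 156 and 159 CPM in Viperin + Insulin libraries, against 143, 139 and 141 CPM in Insulin libraries. With vehicle ATP6AP2 had 162, 176 and 169 CPM in Viperin libraries, against 153, 147 and 134 CPM in Control libraries. The groups did not overlap, and the changes were 0.18 ± 0.04 (adjusted p = 0.00323) and 0.22 ± 0.04 (adjusted p = 0.00024). With insulin it did not pass without Viperin + Insulin library 1 (0.15, adjusted p = 0.0687). The other 9 V-ATPase members gave log2 fold changes from -0.08 to 0.08 over both insulin states and did not pass, among them ATP6V1A (0.06 ± 0.03 (adjusted p = 0.17)).

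SORT1, sortilin, a sorting receptor that binds progranulin and prosaposin, had 215, 212 and 219 CPM in Viperin + Insulin libraries, against 194, 189 and 198 CPM in Insulin libraries. With vehicle SORT1 had 214, 216 and 211 CPM in Viperin libraries, against 201, 199 and 198 CPM in Control libraries. The 6 plasmid libraries were all above the 6 others, by 0.15 ± 0.04 (adjusted p = 0.00457) with insulin and 0.10 ± 0.04 (adjusted p = 0.148) with vehicle. With insulin SORT1 did not pass without any 1 of Viperin + Insulin library 3 or Insulin library 2 (0.14, adjusted p 0.0599 to 0.0842), and over both states it gave 0.13 ± 0.03 (adjusted p = 0.00029) and held whichever library was left out. CTSZ and CTSA rose with the plasmid in insulin-treated cells (0.19 ± 0.04 (adjusted p = 0.00261) and 0.13 ± 0.04 (adjusted p = 0.03)), CTSZ whichever library was left out. CTSA did not pass without any 1 of Viperin + Insulin libraries 1, 2 and 3 or Insulin libraries 2 and 3 (0.11 to 0.14, adjusted p 0.0662 to 0.249), nor by DESeq2 (adjusted p = 0.0641). In vehicle-treated cells they gave 0.06 and 0.08 and did not pass. Over both states both passed (0.13 ± 0.03 (adjusted p = 0.0027) and 0.11 ± 0.03 (adjusted p = 0.00465)), CTSA not on unstranded counts (adjusted p = 0.0892). ASAH1, acid ceramidase, and NPC2 also rose over both states (0.10 ± 0.03 (adjusted p = 0.0277) and 0.09 ± 0.03 (adjusted p = 0.0326)). ASAH1 did not pass without any 1 of Viperin + Insulin libraries 1 and 3, Viperin library 2, Insulin libraries 2 and 3 or Control libraries 2 and 3 (0.08 to 0.10, adjusted p 0.064 to 0.106), and NPC2 did not pass without any 1 of Viperin + Insulin libraries 1 and 2, Viperin libraries 2 and 3, Insulin libraries 1, 2 and 3 or Control libraries 2 and 3 (0.07 to 0.09, adjusted p 0.054 to 0.118). By DESeq2 the calls of ASAH1 over both states (adjusted p = 0.071), MANBA with vehicle (adjusted p = 0.0688) and HEXA with insulin (adjusted p = 0.082) were lost, and with no filter on low counts those of NPC2 (adjusted p = 0.056) and LAMP2 (adjusted p = 0.0591) over both states. MANBA with vehicle was also lost in the fit of only the groups compared (adjusted p = 0.101), and NPC2 over both states without both Control library 1 and Viperin library 3 (adjusted p = 0.0641).

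The insulin response did not differ detectably between the plasmids for any member. By edgeR 0 of 53 members and 0 of 23041 genes (0 percent) passed for the difference, and DESeq2 also gave 0 members. At an unadjusted p under 0.05 there were 5 of 53 members, CTSL, LGALS3, CTSO, CTSZ and ATP6V1B2, beside 1296 of 23041 genes. These 5 did not pass after adjustment, and the values that follow are description only. CTSL, a cysteine protease, was 82.9 ± 6.24 CPM in Insulin and 77.4 ± 1.73 CPM in Control libraries, and 76.3 ± 2.45 CPM in Viperin + Insulin and 81.5 ± 3.05 CPM in Viperin libraries (SD, n = 3 each), a difference of responses of -0.19 ± 0.06 (adjusted p = 0.597). CTSO, a cysteine protease with few counts, had 0.766, 0.736 and 0.822 CPM in Insulin libraries, against 0.464, 0.495 and 0.718 CPM in Control libraries, and with the plasmid it had 0.736, 0.819 and 0.743 CPM in Viperin + Insulin libraries, against 0.919, 1.26 and 1.097 CPM in Viperin libraries. It was the 1 member whose groups did not overlap in either pair and lay in opposite order in the 2 pairs, with a difference of responses of -0.90 ± 0.38 (adjusted p = 0.749). For CTSF the difference was -0.05 ± 0.09 (adjusted p = 0.986) and for GPNMB -0.07 ± 0.08 (adjusted p = 0.971). In the insulin comparisons, 5 members passed on both plasmids, ATP6V1A, CTSB, CTSF, GRN and TPP1, all with the same sign (9.43% of members, beside 2.32% of all genes), and 41 of 53 members had the same sign in the 2 pairs (77.4%, beside 62.1% of all genes).

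Summed over all 53 members, the level was 6732 ± 24.8 CPM in Viperin + Insulin, 6853 ± 75.4 in Viperin, 6385 ± 37.8 in Insulin and 6476 ± 130 CPM in Control libraries (SD, n = 3 each). All 6 libraries with the plasmid (6711 CPM or more) were above all 6 without it (6614 CPM or less). The peptidase sum was 891.6 ± 6.08 CPM in Viperin + Insulin and 972 ± 23.9 CPM in Viperin libraries, and 857 ± 6.79 CPM in Insulin and 928 ± 21.9 CPM in Control libraries, with insulin-treated libraries lower in each pair. The V-ATPase sum differed less, at 1429 ± 4.92 CPM in Viperin + Insulin and 1399 ± 6.46 in Viperin, and 1416 ± 30.2 CPM in Insulin and 1362 ± 46.5 in Control libraries. PSAP averaged 918 CPM in Viperin + Insulin, 963 in Viperin, 762 in Insulin and 799 CPM in Control libraries. This 1 gene thus makes up much of the plasmid shift in the first sum, and the sum without it was not taken.

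Other lysosomal genes, 92 in 5 lists that are no members, were counted in the same fit, in which 7.96 percent of all genes passed with the plasmid over both insulin states (4.47 percent higher) and 11.7 percent with insulin over both plasmids. Of 25 other hydrolases and cofactors, 8 rose and 0 fell with the plasmid (32%), among them LGMN, an asparagine-specific protease (0.21 ± 0.03 (adjusted p = 1.6e-07)), and SCPEP1 (0.23 ± 0.03 (adjusted p = 1.3e-06)), with a median of 0.09. With insulin 0 of the 25 rose and 4 fell (16%, beside 5.97 percent of all genes lower), among them HGSNAT (-0.18 ± 0.03 (adjusted p = 3.8e-05)). The median of the 25 was -0.066 with insulin, and 20 of them were below 0. Of 16 genes of mannose 6-phosphate tagging and sorting, 4 rose with the plasmid (25%), including IGF2R, the large mannose 6-phosphate receptor (0.16 ± 0.03 (adjusted p = 1.1e-05)), and SUMF1, which activates sulfatases (0.28 ± 0.05 (adjusted p = 5.2e-05)). With insulin 1 of the 16 rose, AP1G1 of the clathrin adaptor AP-1 (0.13 ± 0.03 (adjusted p = 0.0002)), and 1 fell. Taken in either direction that is 12.5%, near the 11.7 percent of all genes. Of 16 other membrane proteins, 3 rose and 0 fell with the plasmid, and 1 rose and 2 fell with insulin, with the 2-pore channel TPCN1 at -0.34 ± 0.05 (adjusted p = 2.3e-07). Of 11 measured other V-ATPase subunits, out of 13 listed, 1 rose and 1 fell with insulin, and 0 rose and 2 fell with the plasmid. Each is 18.2% of a short list, beside 11.7 percent of all genes with insulin and 7.96 percent with the plasmid. The median of the 11 with the plasmid was 0.029, with a median standard error of 0.061. With so few genes and 4.47 percent of all genes higher, 0 risen genes cannot show whether this list shared the rise.

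Among regulators of lysosomal gene expression, the share that passed was near that of all genes, 9.09% with insulin beside 11.7 percent and 9.09% with the plasmid beside 7.96 percent. Of 22 genes of the TFEB family and its regulators, 0 rose and 2 fell with insulin, TFEB itself (-0.27 ± 0.09 (adjusted p = 0.0261)) and TSC2 (-0.09 ± 0.03 (adjusted p = 0.0405)). With the plasmid 1 rose, FLCN, a GTPase activator for RagC and RagD (0.27 ± 0.04 (adjusted p = 7.3e-07)), and 1 fell, RPTOR, the mTORC1 scaffold (-0.09 ± 0.03 (adjusted p = 0.0421)). The medians of the 22 were 0.03 with insulin and 0.01 with the plasmid. These are transcript levels, and the location or phosphorylation of TFEB was not measured here.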

How the data were processed

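mRNA-seq libraries of 12Z cells (12 in all) were used. According to the methods, the authors trimmed paired-end reads (cutadapt, Trim Galore), mapped the trimmed reads to hg38 and counted them with STAR. No source used here gives versions of these tools. The annotation is stated as GENCODE vM16, a mouse release, while the gene IDs are human. The deposited values are unnormalized, unfiltered counts for each gene, and the reverse-strand counts were used. Lines for reads assigned to no gene (20.6% to 24.9% of the read pairs, 9.44% to 13.9% for multiple mapping) stayed out of the library sizes. Names came from GENCODE v44 (60357 of 60617 IDs) and promoters from RefSeq (GRCh38.p14).

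The 23041 genes that averaged 1 count or more over the libraries were normalized with TMM, and 4 group means were fitted in edgeR 4.0.16 (robust quasi-likelihood, R 4.3.3, prior count 2), with Benjamini-Hochberg adjustment over all genes tested. Standard errors were derived from the tests, as the size of the log2 fold change divided by the square root of its F statistic. They were not estimated directly by the model. The study used DESeq2 with independent hypothesis weighting and a threshold of 0.001; here members were called at 0.05, and a library left out leaves 2 in its group, taken to vary like the others. On simulated data the fit gave no call of the wrong direction, but false calls exceeded the nominal share in several comparisons, so calls near the threshold may hold more false ones than 0.05 states.

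The members, role groups, related lists and motifs were chosen with earlier results of these data known. Members were named by smallest p among those past 0.05, at most 8 in each direction of a comparison, with PSAP, GPNMB and the highest and lowest in level; up to 3 genes were named per related list, and further members were named after their values were seen. Alternatives were RLE size factors, library sizes without RSAD2 and mitochondrially encoded genes, DESeq2 1.42.0, a replicate block, unstranded counts, filterByExpr or no filter, pairwise fits, leaving out each library, and, chosen after seeing the data, leaving out both Control library 1 and Viperin library 3. Figures were made with Python 3.11.15 and matplotlib 3.10.9.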

Additional observations from a re-analysis of the deposited data

How the results depend on the processing

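Of 76 calls of a member in a comparison, 38 passed 0.05 under each of up to 21 alternatives, and 39 did so whichever library was left out. In 1557 values under the alternatives, 0 changed direction and 170 were not past the threshold. Leaving out 1 library gave 4 to 12 called members for insulin in empty-vector cells (11 with all libraries), 4 to 9 for insulin in Viperin cells (6), 15 to 22 for insulin over both plasmids (20), 7 to 13 for the plasmid with vehicle (10), 4 to 11 for the plasmid with insulin (10), 13 to 25 for the plasmid over both insulin states (19) and 0 for the difference of insulin responses. The plasmid comparison in insulin-treated cells depended most on the setting, with 6 members by DESeq2 and 16 (15 higher, 1 lower) when only the groups compared were fitted, which rests on 6 libraries for the spread; the cause was not tested beyond that. The share of all genes that passed moved with the library left out as well. It was 2.72 to 5.88 percent for insulin in empty-vector cells and 2.67 to 6.04 percent for insulin in Viperin cells. Shares for the other comparisons and settings are not given here, so shifts in these counts cannot be read as particular to the members. The RSAD2 fold was 143.7 to 170.58 with 1 library left out. Without Control library 1 and Viperin library 3, chosen after seeing the data, the counts were 14, 5, 22, 12, 10, 22 and 0 in the same order. With a replicate block the counts were 12, 6, 21, 9, 9, 19 and 0, so no count moved by over 1.5 times; TPP1 with insulin and GRN with vehicle lost their plasmid call. Libraries with the same number did not deviate together (correlation of deviations -0.23 to 0.18, median -0.051, 18 pairs, against -0.25 to 0.23 in 36 pairs of unlike number), so the numbers were not taken as pairs. Depth limits CD68 (0 to 6 counts per library), CLN3 (7 to 22), CTSK (18 to 33) and CTSO (12 to 45), for which no change was detectable.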
